A study of Mus musculus with 50 samples.

Results

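The genes described here are 7 acute-phase and neutrophil granule genes of the mouse, Saa3 (ENSMUSG00000040026), Orm1 (ENSMUSG00000039196), Lcn2 (ENSMUSG00000026822), S100a8 (ENSMUSG00000056054), S100a9 (ENSMUSG00000056071), Hp (ENSMUSG00000031722) and Cp (ENSMUSG00000003617). They were found in the deposited count table by matching Ensembl identifiers to symbols, and they are 7 of its 52636 genes, 38478 of which had at least 1 count. They had been chosen by name for how they behaved in these same libraries. Their levels and their differences from control are therefore given as a description. Whether a difference from control passed the test across all genes is stated as a count and supports nothing here. Individual p-values are printed for members only in comparisons between antibodies, and these are not independent evidence either.

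Acute-phase proteins are secreted during inflammation, chiefly by the liver and also by fat and epithelia, after signals such as interleukin 6, interleukin 1 and tumour necrosis factor. Saa3 is the serum amyloid A of extrahepatic tissue, Orm1 (orosomucoid) a plasma carrier protein, Hp (haptoglobin) a binder of free haemoglobin and Cp (ceruloplasmin) a copper-carrying ferroxidase. Lcn2 (lipocalin 2) binds bacterial iron carriers and is made both by neutrophils and by stressed epithelium. S100a8 and S100a9 form calprotectin, which fills the cytosol of neutrophils. The thyroid itself is built of follicles that store thyroglobulin (Tg) between vessels, fibroblasts and fat.

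Thyroid RNA was sequenced from male C57BL/6 mice, aged 10 to 14 weeks in the sample protocol and 10 to 12 weeks in the series design. A single intraperitoneal injection carried an isotype control against ragweed (RW, 40 mg/kg), antibodies that block the ligands Jag1 and Jag2 (aJ1aJ2, each at 20 mg/kg), the receptors Notch1 and Notch2 (aN1aN2, 5 and 10 mg/kg), or all of Notch1, Notch2 and Notch3 (aN1aN2aN3, 5, 10 and 20 mg/kg). Tissue was taken after 15 hours and 5 days (RW, aJ1aJ2 and aN1aN2 at each time), and after 7 days in one set with RW and aJ1aJ2 and another with aJ1aJ2 and aN1aN2aN3, which gave 10 groups of 5 libraries. The series design also describes daily thyroid hormone injections, and no label says which mice had them. The labels number the libraries of a group 1 to 5 without saying that each came from its own mouse, so the spread between them may in part be technical. Antibodies injected this way reach the whole animal, and RNA of a whole gland cannot tell apart fewer cells of a type and less RNA per cell.

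The promoters of Saa3, Lcn2, S100a8 and S100a9 are printed first because these were the members with the widest range of levels and because motifs of inflammatory transcription factors could be looked for in them. Each is the 250 bases before the transcription start in RefSeq (build GRCm38.p6), 5′ to 3′ on the gene's strand, with the motifs found in capitals. Saa3 lies at chr7:46715677-46715926 on the minus strand, Lcn2 at chr2:32387740-32387989 on the minus strand, S100a8 at chr3:90668821-90669070 on the plus strand and S100a9 at chr3:90695722-90695971 on the minus strand.
Saa3: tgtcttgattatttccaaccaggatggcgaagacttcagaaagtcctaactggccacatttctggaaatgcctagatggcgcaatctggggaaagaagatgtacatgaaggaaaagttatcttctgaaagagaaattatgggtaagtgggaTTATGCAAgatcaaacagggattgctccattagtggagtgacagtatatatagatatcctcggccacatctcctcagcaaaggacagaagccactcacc
Lcn2: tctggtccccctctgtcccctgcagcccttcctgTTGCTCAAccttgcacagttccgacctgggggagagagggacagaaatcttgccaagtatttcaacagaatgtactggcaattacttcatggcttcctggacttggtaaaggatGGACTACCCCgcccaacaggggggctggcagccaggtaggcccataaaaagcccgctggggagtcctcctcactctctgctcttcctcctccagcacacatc
S100a8: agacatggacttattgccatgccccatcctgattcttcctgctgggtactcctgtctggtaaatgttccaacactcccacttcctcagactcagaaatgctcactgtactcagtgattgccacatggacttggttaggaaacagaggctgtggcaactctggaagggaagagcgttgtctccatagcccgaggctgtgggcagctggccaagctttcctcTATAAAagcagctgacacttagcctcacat
S100a9: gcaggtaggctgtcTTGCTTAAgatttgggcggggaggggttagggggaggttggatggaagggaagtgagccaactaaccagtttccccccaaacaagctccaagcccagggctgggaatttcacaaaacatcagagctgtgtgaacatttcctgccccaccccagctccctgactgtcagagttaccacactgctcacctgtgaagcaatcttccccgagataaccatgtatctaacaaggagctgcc
The motifs were searched on both strands as TTGCNNAA for C/EBP, GGG followed by CC at a distance of 5 bases for NF-kB, TTCNNNGAA for STAT and TATAAA for the TATA box. Saa3 held a C/EBP match beginning at base -99 from the start. Lcn2 held a C/EBP match at -216 and an NF-kB match at -102. S100a8 held a TATA box at -30, and S100a9 a C/EBP match at -236. Over 32851 windows of the same length, 9.56% held the C/EBP letters, 45.8% the NF-kB letters, 12.4% the TATA letters and 7.02% the STAT letters. No STAT match was found in these 4 windows. Of the 7 genes, 5 were in the promoter table. For the other of them, Cp, the window at its first start held none of the motifs, and the window at its second start held C/EBP at -70, NF-kB at -146 and TATA at -27 and -25. Orm1 and Hp are named only. S100a8 and S100a9 are neighbours on chromosome 3, Saa3 lies beside Saa4, Saa1 and Saa2, and Orm1 beside Orm3 and Orm2.

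Libraries held 15271242 to 52835846 counts. The labelled tissue was checked with Tg, which took 7.37% to 36.8% of the counts at 15 hours and 8.87% to 36.5% in the first 7-day set. At 5 days it took 8.80% to 42.4%, except in RW replicate 3 (0.45%) and aJ1aJ2 replicate 3 (2.39%). In the second 7-day set it took 1.15% to 2.82% after aJ1aJ2 and 3.73% to 6.50% after aN1aN2aN3. In the deposited FPKM table, RW and aJ1aJ2 of 15 hours and both 7-day sets share 1 block of 30 columns, whereas aN1aN2 of 15 hours and all 5-day libraries share another of 20. Every difference of aN1aN2 from RW or from aJ1aJ2 at 15 hours, and every change of the aN1aN2 effect from 15 hours to 5 days, therefore cannot be told apart from the difference between the blocks. Neutrophil RNA was followed with 9 marker genes (Ly6g, Cxcr2, Csf3r, Retnlg, Mmp8, Mmp9, Ngp, Camp and Cd177), whose summed unscaled CPM (counts scaled to the total of the library) reached 603 in aJ1aJ2 replicate 3 and 17.3 in RW replicate 3 at 5 days, 97.4 in aN1aN2 replicate 2 at 15 hours and 19.6 in 1 aN1aN2 library at 5 days. It lay between 1.73 and 10.6 in all others.

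Per unit of transcript length (FPKM), Hp was the most abundant of the 7 transcripts in 49 of 50 libraries, at 7.70 to 132 FPKM. The exception was aJ1aJ2 replicate 3 at 5 days, where S100a8 stood at 210, S100a9 at 126, Hp at 59.0 and Lcn2 at 29.5 FPKM. Cp, at 0.669 to 3.89 FPKM, held the rank below Hp in 22 libraries and Orm1 held it in 17. All further levels are CPM scaled by the TMM method (trimmed mean of M values), and they are compared only within a gene.

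**Figure D1:**
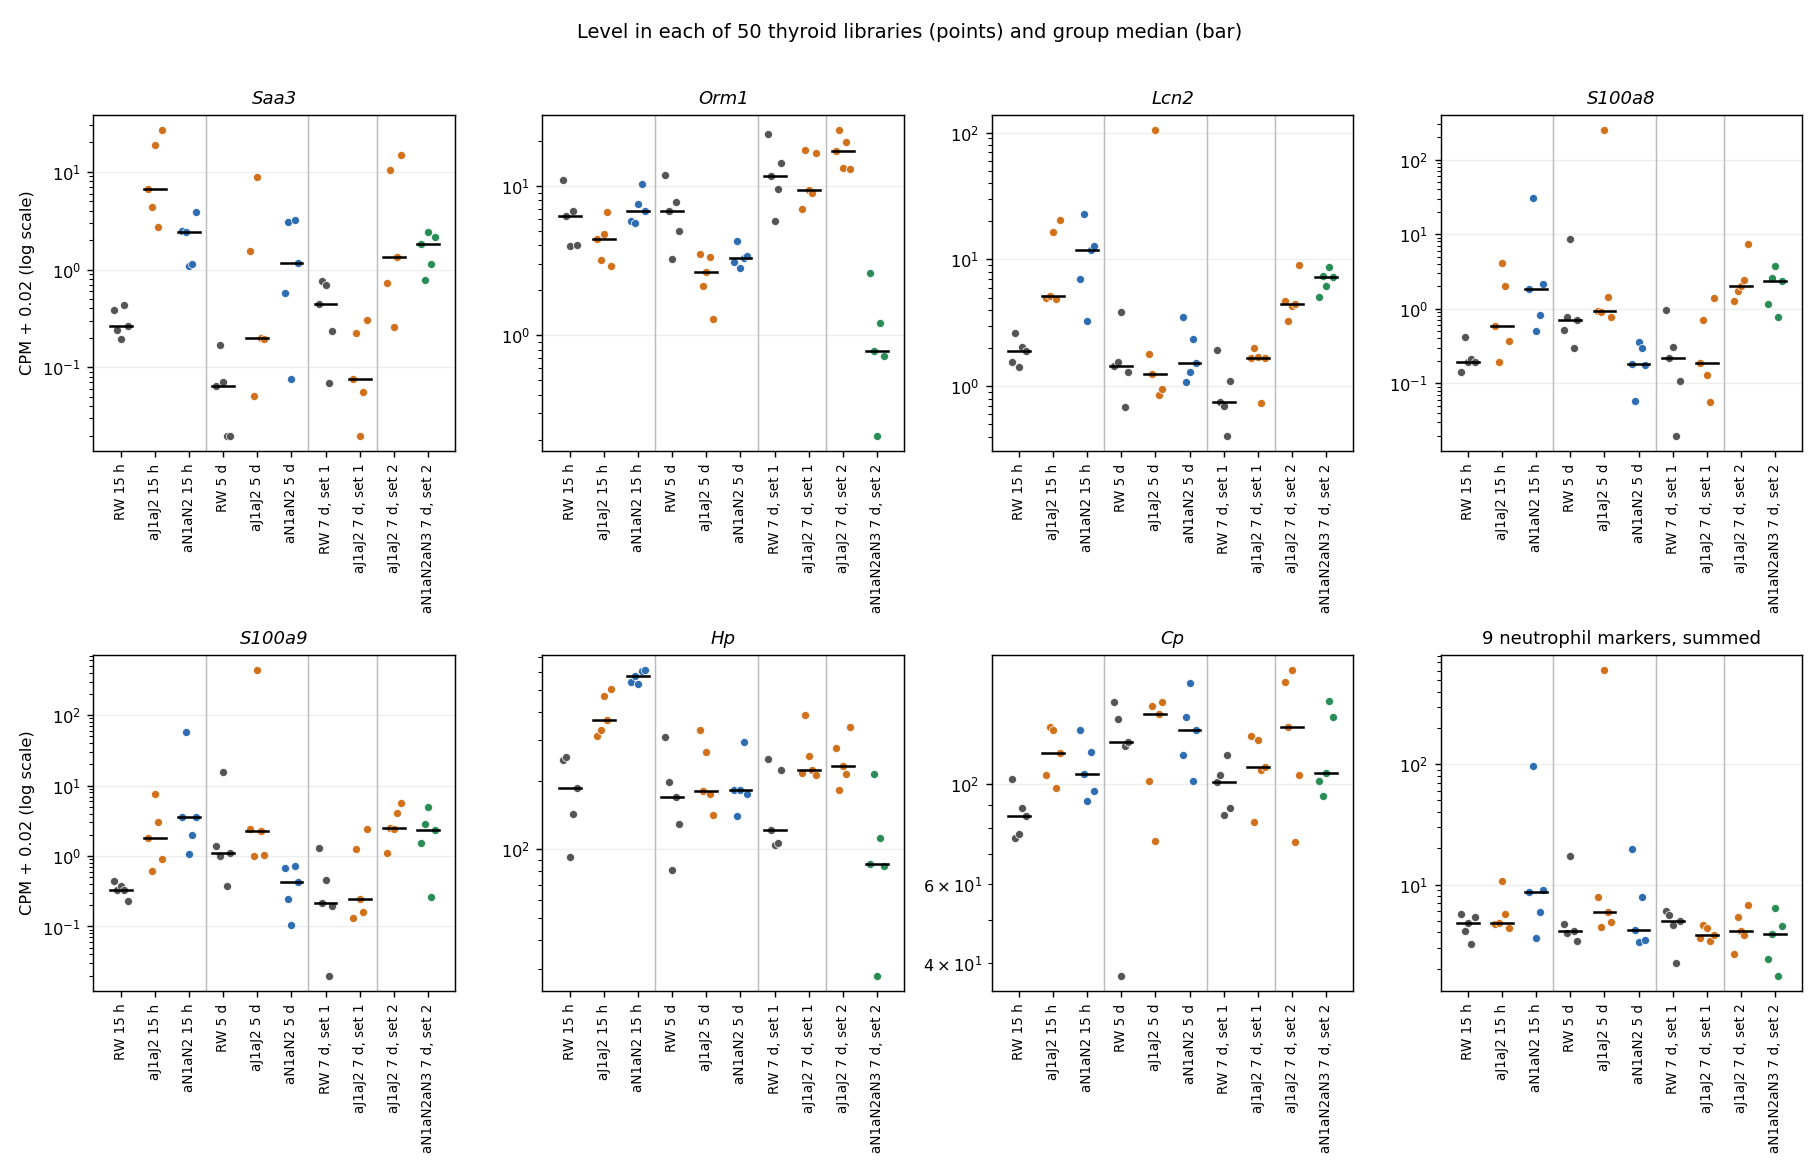
Level of each gene in each of the 50 libraries, as CPM + 0.02 on a log scale, by antibody, time and set, with points for libraries and bars for group medians; the last panel sums unscaled CPM of 9 neutrophil markers. Saa3, Lcn2 and Hp of both antibody groups lie above RW at 15 hours, S100a8 and S100a9 of aJ1aJ2 at 5 days have 1 point far above the rest (248 and 435 CPM), and Orm1 is lowest after aN1aN2aN3.

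Differences were fitted with edgeR's quasi-likelihood test on all genes and called at an adjusted p under 0.05 (Benjamini-Hochberg). At 15 hours after aJ1aJ2, 1 of the 7 genes, Saa3, was called higher and 0 lower, where 0.346% of all 18513 genes tested were called higher and 0.227% lower. At 15 hours after aN1aN2, Saa3, Lcn2, S100a9 and Hp were called higher and 0 genes lower, where the shares of all genes were 0.88% and 0.799%. These contrasts served in choosing the genes, so nothing is read from their counts. Their median log2 fold change was 2.46 after aJ1aJ2 and 2.61 after aN1aN2, beside -0.03 and 0.01 over all genes tested.

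Between aN1aN2 and aJ1aJ2 at 15 hours edgeR called 0 of the 7, with 4 at an unadjusted p under 0.05, where 0.081% of all genes were called higher and 0.0486% lower. DESeq2 called 1, Saa3, and limma with library quality weights 0. At 5 days after aJ1aJ2 edgeR called 0, with 5 at an unadjusted p under 0.05, beside 0.0759% of all genes called higher and 0.103% lower. DESeq2 called 2 (Saa3 higher and Orm1 lower), limma with quality weights 1 (Orm1) and limma-trend on FPKM 0. At 5 days after aN1aN2 edgeR called 0, with 2 at an unadjusted p under 0.05, and 0% of all genes, whereas DESeq2 called 1 (Saa3), limma with quality weights 2 (Saa3 and Orm1) and limma-trend on FPKM 0. The 2 antibodies at 5 days differed in 0 of the 7 by edgeR, beside 0% of all genes, with 3 at an unadjusted p under 0.05, and in 0 by DESeq2 and by both limma fits.

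Saa3, S100a8 and S100a9 had too few counts to be tested in the first 7-day set. Of the other 4 genes, edgeR called 0 there, beside 0% of all genes, with 1 at an unadjusted p under 0.05. DESeq2 and both limma fits also called 0. Between aN1aN2aN3 and aJ1aJ2 at 7 days, Orm1 was called lower and 0 of the 7 higher by edgeR, where 9.19% of all 18450 genes were higher and 10.4% lower. The change of the aJ1aJ2 effect from 15 hours to 5 days was called for 0 of the 7 by edgeR (0.636% of all genes), with 0 at an unadjusted p under 0.05. DESeq2 also called 0 and limma with quality weights 3. The change of the aN1aN2 effect over the same times was called for 1, S100a9 (1.8% of all genes), and the change of the aJ1aJ2 effect from 15 hours to 7 days for 1, Saa3 (0.314% of all genes). Both changes include contrasts of 15 hours that served in choosing the genes, so nothing is read from these calls.

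**Figure D2:**
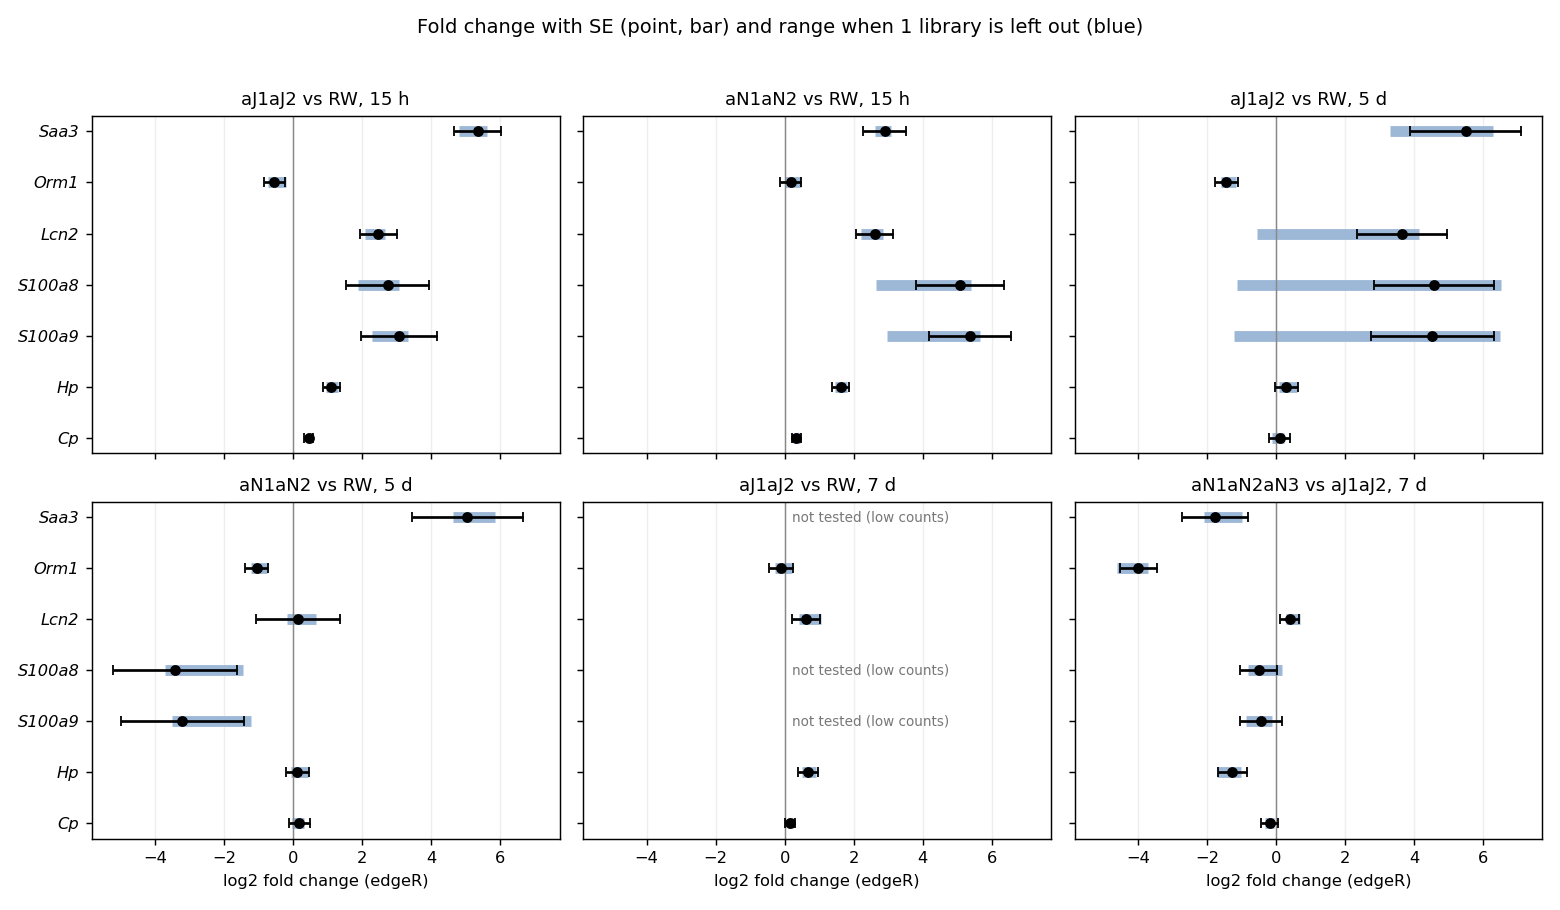
edgeR log2 fold change of the 7 genes in 6 comparisons; points with bars are the estimate ± SE and blue bands the range of estimates when 1 library is left out. The bands cross 0 at 5 days after aJ1aJ2 for Lcn2, S100a8 and S100a9 (-0.56, -1.12 and -1.23 without replicate 3), and stay narrow for Hp at 15 hours.

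Saa3 was higher in every library of both antibody groups than in every RW library at 15 hours. RW libraries held 0.367, 0.219, 0.176, 0.415 and 0.247 CPM, 44 counts in all. After aJ1aJ2 they held 6.65, 4.39, 18.9, 2.74 and 26.7 CPM. After aN1aN2 they held 2.45, 2.42, 1.06, 1.13 and 3.85 CPM, so that 4 of the 5 lay below the lowest aJ1aJ2 library. The median was 26.9 times that of RW after aJ1aJ2 and 9.83 times after aN1aN2, and the fitted log2 fold changes were 5.35 (SE 0.68) and 2.90 (SE 0.63). The Saa3 call after aJ1aJ2 held in all 15 fits that left out 1 library (4.82 to 5.62) and was lost in limma-trend on FPKM values (3.82 on the log2(FPKM + 0.1) scale). After aN1aN2 it held in 7 of 15 such fits (2.61 to 3.09), and it was lost without any 1 of the 5 RW libraries and without aN1aN2 replicate 1, 2 or 5. The difference between the antibodies, log2 -2.45 (SE 0.59) for aN1aN2 against aJ1aJ2, did not pass edgeR's threshold (adjusted p = 0.125).

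At later times Saa3 differed widely among the libraries of a group. At 5 days the RW libraries held 2, 3, 1, 0 and 0 counts. The aJ1aJ2 libraries held 37, 1, 241, 6 and 6 counts (1.52, 0.0302, 8.77, 0.180 and 0.176 CPM), and the aN1aN2 libraries 17, 79, 2, 103 and 45 counts (0.551, 3.01, 0.0557, 3.19 and 1.15 CPM). Both antibody groups overlapped RW, with fitted log2 fold changes of 5.49 (SE 1.61) and 5.05 (SE 1.60), the first of which was 3.29 without aJ1aJ2 replicate 3. In the first 7-day set RW held 0.421, 0.737, 0.682, 0.0486 and 0.218 CPM while the aJ1aJ2 libraries held 1, 3, 0, 1 and 5 counts. The aJ1aJ2 effect thus differed between 15 hours and 7 days by log2 -7.26 (SE 1.07), a difference called in all 20 fits that left out 1 library (-7.93 to -6.70). Of the groups in that fit, aJ1aJ2 of 15 hours held 1859 Saa3 counts, against 44 and 47 in RW of 15 hours and 7 days and 10 in aJ1aJ2 of 7 days. Saa3 could not be tested in the first 7-day set alone, and its 15-hour contrast served in choosing it. These calls therefore support nothing here.

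In the second 7-day set, which has no RW library in the labels, Saa3 was spread over 0.716, 10.5, 0.236, 1.32 and 15.0 CPM after aJ1aJ2 and over 1.83, 0.762, 2.41, 1.13 and 2.11 CPM after aN1aN2aN3. The groups overlapped (log2 -1.77, SE 0.96, edgeR adjusted p = 0.218). By median, Saa3 ran from 6.65 CPM (aJ1aJ2, 15 hours) through 2.42 (aN1aN2, 15 hours), 1.83 (aN1aN2aN3), 1.32 (aJ1aJ2, second 7-day set), 1.15 (aN1aN2, 5 days), 0.421 (RW, 7 days), 0.247 (RW, 15 hours), 0.180 (aJ1aJ2, 5 days) and 0.0565 (aJ1aJ2, first 7-day set) to 0.0438 (RW, 5 days). Each neighbouring pair in that order overlapped. Of the 2602 stretches of 50 bases in Saa3 transcripts, 4.15% also occurred in other genes, the most in Malat1 and an antisense transcript.

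Hp, the haemoglobin scavenger, separated the 3 groups of 15 hours without overlap. It held 247, 254, 92.8, 143 and 186 CPM after RW. After aJ1aJ2 it held 313, 335, 471, 368 and 504 CPM, and after aN1aN2 541, 576, 531, 605 and 609 CPM. The aN1aN2 libraries were the 5 highest of all 50. The medians were 1.98 and 3.10 times that of RW, with log2 fold changes of 1.11 (SE 0.24; 0.94 to 1.29 with 1 library left out) and 1.63 (SE 0.24; 1.46 to 1.80). The aN1aN2 difference was called, also in all 15 fits that left out 1 library and in all 7 other alternatives. The aJ1aJ2 difference was not called by edgeR, but it was in 1 of 15 fits that left out a library (without RW replicate 1) and in 4 of 10 other alternatives, DESeq2 among them. For aN1aN2 against aJ1aJ2 the difference of 0.52 (SE 0.24) was not past the threshold (edgeR adjusted p = 0.390).

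Liver RNA also differed between these groups. Albumin (Alb), the main hepatocyte transcript, lay at 30.9 to 164 unscaled CPM in RW, 2.39 to 11.8 in aJ1aJ2 and 0 to 0.149 in aN1aN2. Its edgeR log2 fold changes were -3.89 and -10.71, and 12 and 17 of 20 tested hepatocyte markers fell after aJ1aJ2 and aN1aN2, with medians of -3.41 and -4.46. The summed hepatocyte markers ranged over 111 to 506 CPM in RW, 121 to 214 in aJ1aJ2 and 110 to 227 in aN1aN2, where Mup20 and Cyp3a11 were at 0. Alb was likewise near 0 in the RW libraries of 5 days (0 to 0.0573 unscaled CPM), which share the block of aN1aN2 at 15 hours and where Hp was 81.0 to 311 CPM, so low Alb was not limited to antibody groups. In RW of the first 7-day set Alb was 317 to 1529 unscaled CPM. The part of liver RNA in the Hp differences was not tested. Of 8 fat markers edgeR called 0 in both contrasts, with 2 and 5 at an unadjusted p under 0.05 and medians of 0.27 and 0.67, and DESeq2 and limma with quality weights also called 0. They summed to 487 to 1304 CPM in RW, 1010 to 1589 in aJ1aJ2 and 1148 to 1790 in aN1aN2. Whether fat contributed to Hp was not tested.

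At 5 days Hp of both antibody groups overlapped RW. It was 311, 198, 81.0, 170 and 129 CPM after RW, 334, 181, 267, 174 and 142 after aJ1aJ2 and 183, 140, 182, 296 and 174 after aN1aN2. The log2 fold changes were 0.30 and 0.12 (SE 0.34 each), and the aN1aN2 effect differed from that of 15 hours by -1.51 (SE 0.43), which edgeR did not call. In the first 7-day set Hp was 248, 122, 104, 107 and 222 CPM after RW and 216, 387, 257, 222 and 213 after aJ1aJ2 (log2 0.69, SE 0.29). In the second it was 277, 181, 231, 213 and 342 CPM after aJ1aJ2 and 86.1, 215, 27.9, 112 and 84.5 after aN1aN2aN3. There 4 of the 5 aN1aN2aN3 libraries were below the lowest aJ1aJ2 library. The log2 difference of -1.28 (SE 0.42) did not pass edgeR's threshold (adjusted p = 0.0537). It passed in 5 of 9 other alternatives, DESeq2 among them, with adjusted p from 0.00681 to 0.116 over the 9, and in 1 of 10 fits that left out a library. In the same libraries the fat markers summed to 3465 to 5785 unscaled CPM after aJ1aJ2 and 491 to 2047 after aN1aN2aN3. The part of fat in this Hp difference was not tested.

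**Figure D3:**
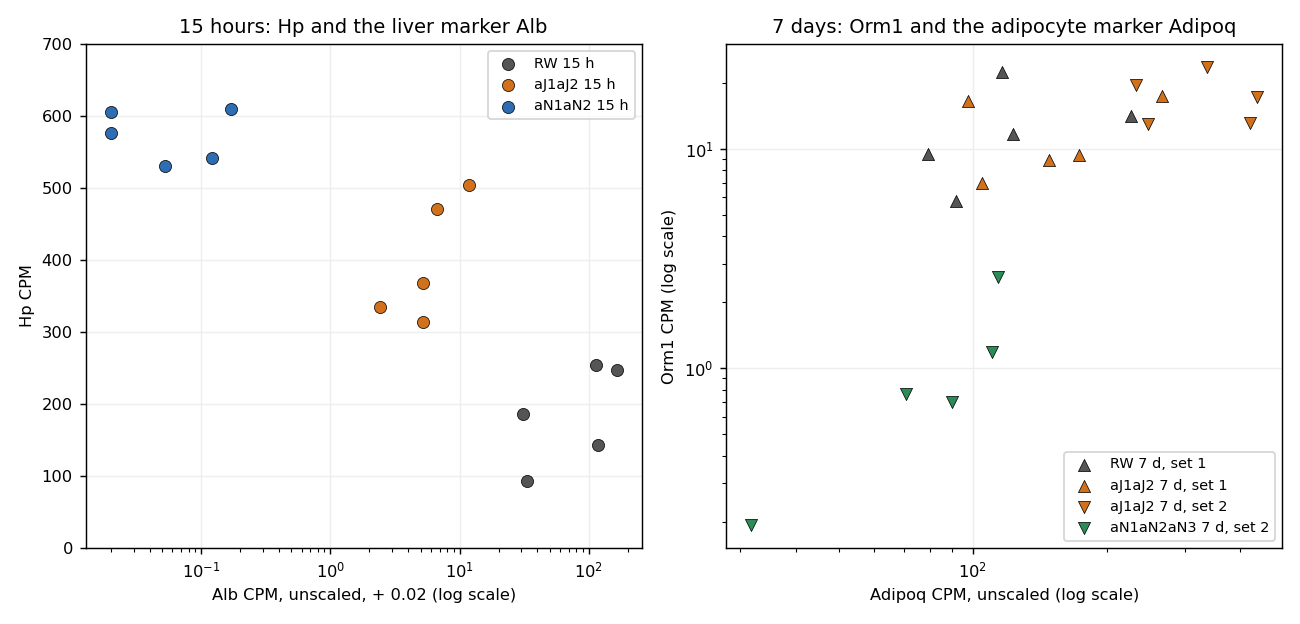
Left, Hp (CPM) against Alb (unscaled CPM + 0.02, log scale) in the 15 libraries of 15 hours; right, Orm1 (CPM) against the fat marker Adipoq (unscaled CPM), both on log scales, in the 20 libraries of 7 days, 1 point per library. Hp is highest (531 to 609 CPM) where Alb is at or below 0.149 CPM, and Orm1 and Adipoq are both low after aN1aN2aN3.

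Orm1 was the one member that edgeR called between aN1aN2aN3 and aJ1aJ2, a comparison without an RW control. In the second 7-day set it held 17.2, 23.6, 13.1, 19.6 and 13.0 CPM after aJ1aJ2 and 2.61, 0.762, 0.193, 1.19 and 0.703 CPM after aN1aN2aN3. The groups did not overlap, and Orm1 fell by log2 4.00 (SE 0.54, edgeR adjusted p = 0.00166). The call held in all 10 fits that left out 1 library and in 9 of 9 other alternatives, over which the log2 difference ran from -4.61 to -2.26. Since Orm1 was chosen with earlier results of these libraries known, this p is not independent evidence. The fat marker Adipoq fell beside it (log2 -2.09, adjusted p = 0.00166), from 233 to 437 unscaled CPM to 31.7 to 114. Of 8 fat markers 5 fell (median -2.19), their sum lying at 3465 to 5785 CPM after aJ1aJ2 and 491 to 2047 after aN1aN2aN3, with none at 0. Of 8 fibroblast markers 4 fell (median -2.33), where 10.4% of all genes were called lower. Other marker lists shifted too, with medians of -1.82 for skeletal muscle, -1.44 for red cells and -0.72 for macrophages and monocytes. Medians were 0.89 for C cells and 0.59 for endothelium. The part of cell makeup in the Orm1 difference was not tested.

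At 15 hours Orm1 of both antibody groups overlapped RW. It held 10.9, 6.28, 3.91, 6.72 and 3.98 CPM after RW, 4.39, 3.16, 4.71, 6.70 and 2.88 after aJ1aJ2 and 5.75, 5.63, 7.55, 10.2 and 6.75 after aN1aN2. The log2 fold changes were -0.54 (SE 0.31) and 0.17 (SE 0.30), with a difference between the antibodies of 0.72 (SE 0.31, edgeR adjusted p = 0.355). At 5 days it held 11.7, 6.74, 3.20, 7.78 and 5.00 CPM after RW. It held 3.46, 2.12, 2.62, 3.33 and 1.26 CPM after aJ1aJ2 and 3.08, 4.24, 2.82, 3.25 and 3.36 after aN1aN2. All 10 lay below the other 4 RW libraries and overlapped only RW replicate 3 (log2 -1.44, SE 0.34, and -1.05, SE 0.33). Without that library edgeR called the aJ1aJ2 difference (-1.61).

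In the first 7-day set Orm1 held 22.3, 11.6, 5.79, 9.49 and 14.1 CPM after RW and 6.95, 17.4, 9.41, 8.91 and 16.5 after aJ1aJ2 (log2 -0.11, SE 0.36). These groups overlapped. The values of Orm1 are uncertain because 148 of its 726 stretches of 50 bases, the read length, are also in its neighbour Orm2 and 16 in Orm3.

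Cp, the copper ferroxidase, varied least. At 15 hours it held 102, 76.0, 77.4, 88.3 and 84.8 CPM after RW. It held 105, 134, 132, 97.8 and 117 CPM after aJ1aJ2 and 132, 105, 91.9, 118 and 96.3 after aN1aN2. The groups overlapped RW only through its replicate 1, with log2 fold changes of 0.45 and 0.34 (SE 0.13 each) and a difference between the antibodies of -0.11 (SE 0.13, edgeR adjusted p = 0.739). At 5 days RW replicate 3 (37.5 CPM), 1 of the 2 libraries with little Tg, stood below the other RW libraries (121 to 152 CPM), and the antibody groups ranged over 74.7 to 152 and 101 to 167 CPM. The log2 fold changes were 0.10 and 0.18 (SE 0.31 each), and without that library they were -0.11 and -0.04.

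At 7 days Cp ranged over 85.3 to 116 CPM after RW and 82.4 to 128 after aJ1aJ2 in the first set (log2 0.15, SE 0.14). In the second it ranged over 74.4 to 179 CPM after aJ1aJ2 and 93.8 to 153 after aN1aN2aN3 (log2 -0.18, SE 0.25, edgeR adjusted p = 0.620). The groups of each set overlapped. Exons of Cp overlap those of Hps3 on the opposite strand, and the use of strand in counting is not given in the sources used here.

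Lcn2, the iron-carrier binder, was higher in every library of both antibody groups than in every RW library at 15 hours. RW libraries held 1.53, 2.59, 1.41, 2.02 and 1.87 CPM. They were 4.96, 5.16, 16.6, 4.88 and 20.4 CPM after aJ1aJ2 and 7.00, 22.7, 3.25, 11.8 and 12.8 CPM after aN1aN2. The log2 fold changes were alike in size, 2.46 (SE 0.54; 2.09 to 2.67 with 1 library left out) and 2.61 (SE 0.54; 2.21 to 2.86). The aN1aN2 difference was called, also in 8 of 15 fits that left out 1 library, but not without any 1 of the 5 RW libraries or without aN1aN2 replicate 2 or 5. The aJ1aJ2 difference was called in 3 of 15 such fits. The antibodies differed by 0.14 (SE 0.51, edgeR adjusted p = 0.921).

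Markers of airway epithelium were high in some of these libraries. Ltf, a granule gene that glands also express, and 8 airway markers stood at 9680 and 9705 unscaled CPM in RW replicate 5, 9854 and 8780 in aN1aN2 replicate 2 and 25491 and 14946 in aN1aN2 replicate 5 at 15 hours, and at 7538 and 8903 in aN1aN2 replicate 1 at 5 days. Lcn2 in those libraries was 1.87, 22.7, 12.8 and 3.50 CPM. In the aJ1aJ2 libraries of 15 hours the airway markers summed to 16.4 to 96.9 CPM. The part of airway RNA in Lcn2 was not tested.

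At 5 days Lcn2 was 1.42, 1.55, 3.86, 0.665 and 1.27 CPM after RW and 3.50, 1.07, 1.28, 2.32 and 1.51 after aN1aN2 (log2 0.14, SE 1.21). After aJ1aJ2 it was 1.77, 1.24, 105, 0.841 and 0.937 CPM. That difference, log2 3.65 (SE 1.31), rested on replicate 3, without which it was -0.56. In the first 7-day set Lcn2 was 1.93, 0.737, 0.682, 0.389 and 1.09 CPM after RW and 1.64, 1.98, 1.67, 0.713 and 1.64 after aJ1aJ2, which overlapped (log2 0.61, SE 0.41). In the second it was 4.69, 3.24, 4.28, 4.43 and 9.06 CPM after aJ1aJ2 and 5.05, 7.41, 6.17, 8.66 and 7.25 after aN1aN2aN3. The aJ1aJ2 library at 9.06 CPM was above all 5 aN1aN2aN3 libraries and its other 4 were below them (log2 0.39, SE 0.28, edgeR adjusted p = 0.327). Without that library the difference was 0.69 and edgeR called it.

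S100a8 and S100a9, the calprotectin subunits, had their highest values in single libraries that also held neutrophil markers. At 5 days after aJ1aJ2 S100a8 held 0.906, 0.877, 248, 1.41 and 0.761 CPM and S100a9 2.43, 0.968, 435, 2.25 and 1.02 CPM. Replicate 3 held 6816 and 11956 of their counts, and it also held Ngp, a neutrophil granule gene, at 285 unscaled CPM, Cxcr2 at 11.6 and Ly6g at 6.93. RW at 5 days held 0.504, 0.749, 8.59, 0.274 and 0.681 CPM of S100a8 and 1.36, 0.998, 15.6, 0.352 and 1.10 of S100a9, again highest in replicate 3, where the 9 neutrophil markers were at 17.3 CPM. The fitted aJ1aJ2 differences, log2 4.58 (SE 1.74) and 4.52 (SE 1.79), became -1.12 and -1.23 without aJ1aJ2 replicate 3.

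After aN1aN2 at 5 days both were low, S100a8 at 0.162, 0.0382, 0.334, 0.279 and 0.154 CPM and S100a9 at 0.648, 0.229, 0.0836, 0.712 and 0.410 CPM. The log2 fold changes of -3.42 (SE 1.80) and -3.21 (SE 1.77) rested on RW replicate 3, without which they were -1.46 and -1.22. S100a9 overlapped RW, and S100a8 did so in 2 libraries above RW replicate 4. Both genes were lower in all 5 aN1aN2 libraries than in every aJ1aJ2 library of 5 days. The log2 differences between the antibodies were -8.00 (SE 2.09, edgeR adjusted p = 0.638) and -7.74 (SE 2.10, adjusted p = 0.744). Without aJ1aJ2 replicate 3 they were -2.31 and -1.98. Replicate 1 of aN1aN2 held 19.6 CPM of the 9 neutrophil markers, more than RW replicate 3 (17.3), with S100a8 at only 0.162 and S100a9 at 0.648 CPM. In that library Ngp was at 0.0255 unscaled CPM and Ly6g at 0, while Cd177 reached 20.8 TMM-scaled CPM in the group.

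At 15 hours S100a9 of both antibody groups lay above RW without overlap. RW held 0.428, 0.307, 0.352, 0.304 and 0.212 CPM. After aJ1aJ2 it was 1.77, 0.597, 7.51, 2.98 and 0.877 CPM, and after aN1aN2 3.52, 57.5, 1.06, 1.99 and 3.53 CPM. The log2 fold changes were 3.07 (SE 1.10) and 5.37 (SE 1.19). The second was called, also in 8 of 15 fits that left out 1 library, but not without any 1 of the 5 RW libraries, aJ1aJ2 replicate 1 or aN1aN2 replicate 2. It was 2.96 without aN1aN2 replicate 2, the library with 97.4 CPM of neutrophil markers where the other 4 held 3.61 to 9.01. The 9 markers lay at 3.18 to 5.71 CPM in RW, where Ly6g was at 0 in all 5 libraries, and at 4.36 to 10.6 in aJ1aJ2. Of the 4 of 10 neutrophil markers (with Ltf) that could be tested, edgeR called 0 in either contrast, with 1 and 2 at an unadjusted p under 0.05. DESeq2 called 1 in each and limma with quality weights 0.

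S100a8 at 15 hours was 0.122, 0.395, 0.176, 0.194 and 0.176 CPM after RW. It was 0.563, 0.176, 4.07, 2.00 and 0.351 CPM after aJ1aJ2 and 1.85, 30.7, 0.491, 0.815 and 2.16 after aN1aN2. The aN1aN2 libraries were all above RW while 2 aJ1aJ2 libraries were not (log2 5.08, SE 1.28, and 2.74, SE 1.20). Without aN1aN2 replicate 2 the first was 2.64. Between the antibodies S100a8 differed by 2.34 (SE 1.10, edgeR adjusted p = 0.402) and S100a9 by 2.30 (SE 1.02, adjusted p = 0.374). Without that library the differences were -0.10 and -0.12. The aN1aN2 effect on S100a9 differed between 15 hours and 5 days by log2 -8.59 (SE 2.26), which was called in 12 of 30 fits that left out 1 library (-8.90 to -6.10) and was lost without aN1aN2 replicate 2 of 15 hours. Its 15-hour groups lie in different blocks and its 5-day groups in the same one, so this change and the blocks cannot be told apart.

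**Figure D4:**
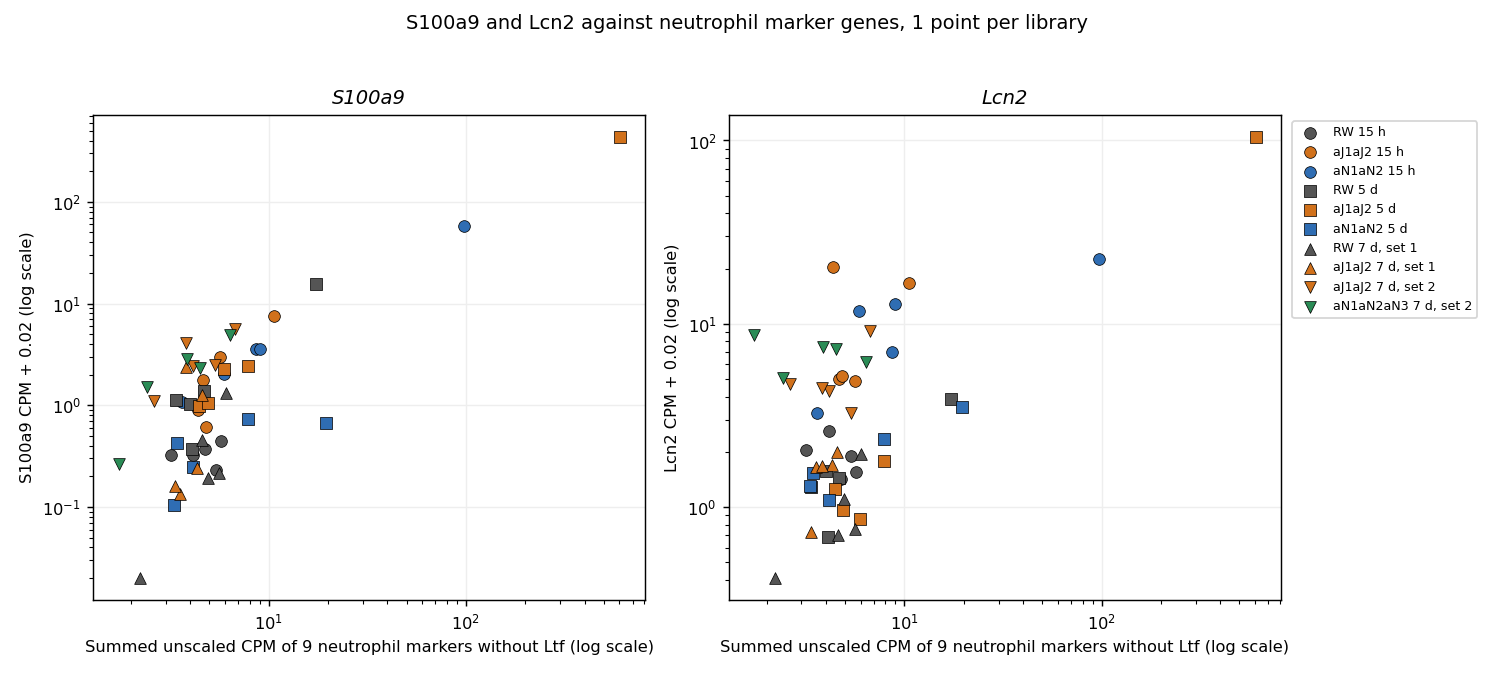
S100a9 (left) and Lcn2 (right), as CPM + 0.02, against the summed unscaled CPM of 9 neutrophil markers, all on log scales, 1 point per library. The 3 libraries with the most S100a9 (435, 57.5 and 15.6 CPM) hold 603, 97.4 and 17.3 CPM of markers, 1 aN1aN2 library of 5 days holds 19.6 CPM of markers with 0.648 CPM of S100a9, and Lcn2 exceeds 16 CPM also in 2 aJ1aJ2 libraries of 15 hours with at most 10.6 CPM of markers.

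At 7 days both genes were low in the first set, S100a8 at 0.947, 0.197, 0.292, 0 and 0.0870 CPM after RW and 0.170, 0.682, 0.111, 0.0356 and 1.36 after aJ1aJ2, and S100a9 at 1.30, 0.197, 0.438, 0 and 0.174 and at 0.113, 1.23, 0.223, 0.143 and 2.38 CPM. The groups overlapped. In the second set S100a8 was 1.27, 1.71, 2.00, 2.42 and 7.31 CPM after aJ1aJ2 and 1.14, 2.53, 3.73, 0.762 and 2.37 after aN1aN2aN3 (log2 -0.51, SE 0.53, edgeR adjusted p = 0.521). S100a9 was 1.07, 2.46, 2.44, 4.11 and 5.61 CPM and 1.50, 2.80, 4.92, 0.244 and 2.29 CPM (log2 -0.44, SE 0.61, adjusted p = 0.640). These groups overlapped too.

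The counts of the calprotectin subunits kept a like ratio in the libraries rich in them. S100a8 made up 36.3% of the counts of the pair in aJ1aJ2 replicate 3 at 5 days (95% Wilson interval 35.6% to 37.0%) and 34.8% in aN1aN2 replicate 2 at 15 hours (33.2% to 36.5%). Over group sums it was 34.1% after aJ1aJ2 and 34.7% after aN1aN2 at 15 hours and 35.2% after RW at 5 days. It was 48.6% (44.8% to 52.4%) after aJ1aJ2 and 47.2% (43.4% to 51.0%) after aN1aN2aN3 in the second 7-day set. The intervals cover counting error only.

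Genes that varied most like each member were ranked by the Spearman correlation over the 50 libraries, each taken as its deviation from its group mean on the log2 CPM scale, among 16199 genes. Libraries share depth and cell makeup, so these are descriptions. S100a8 was closest to S100a9 (rho 0.875, and 0.849 over 47 libraries without the 3 that stand apart), and both were next closest to Retnlg, a neutrophil transcript (0.824 and 0.839). Itgb3 (0.685), Kif2a (0.672) and Fdft1 (0.672) followed for S100a8, and Fdft1 (0.693), Kif2a (0.681) and Ndrg4 (0.677) for S100a9. Hp was closest to Ifi27l2a (0.844), Chst1 (0.838), Cidec (0.827), a fat droplet protein, Cebpa (0.811) and Vnn3 (0.808). Orm1 was closest to Thrsp (0.793), H2-Q10 (0.774), 2010003K11Rik (0.735), Mrap (0.718) and Agpat2 (0.705).

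Cp was closest to Pign (0.860), Plcb4 (0.860), Cd2ap (0.859), Gpalpp1 (0.857) and Trim2 (0.853). Lcn2 and Saa3 had weaker neighbours, Tmeff2 (0.650), Wfdc21 (0.642), Mag (0.630), Rpf2 (0.627) and Gpnmb (0.620) for Lcn2 and Gnl3 (0.640), 6330403K07Rik (0.593), Apba2 (0.591), 3110001I22Rik (0.583) and Slc20a1 (0.582) for Saa3. Among members the next pairs were Lcn2 with S100a8 (0.618), Lcn2 with S100a9 (0.570) and Saa3 with S100a9 (0.532). Hp reached 0.495 with Lcn2 and 0.432 with Orm1, and S100a9 with Cp stood at -0.578.

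Of 28 other acute-phase genes, 22 could be tested at 15 hours. After aJ1aJ2 0 rose and 4 fell (median log2 fold change -0.32), the plasma haem binder Hpx (-3.25, edgeR adjusted p = 0.00683) and the fibrinogen chains Fga (-3.69, adjusted p = 0.00847), Fgb (-4.57, adjusted p = 0.0319) and Fgg (-3.51, adjusted p = 0.00952). After aN1aN2 the protease inhibitor Serpina3n (2.80, adjusted p = 0.0174) and complement C3 (0.95, adjusted p = 0.0372) rose and 6 fell (median 0.08), Fga (-9.49), Fgg (-9.22), Fgb (-7.25) and Hpx (-5.86) among them. These 4 are liver transcripts, as is Alb, which was also near 0 in the RW libraries of 5 days, where Fgb was at 0. Exons of Fgg overlap Gm30097 on the opposite strand. Between the antibodies, which differ in block, 3 were lower after aN1aN2, Fga (-5.79), Fgg (-5.71) and Hpx (-2.61).

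At 5 days edgeR called 0 of 15 other acute-phase genes after aJ1aJ2 and after aN1aN2, with 2 and 3 at an unadjusted p under 0.05, where DESeq2 called 2 and 1 and limma with quality weights 4 and 2. In the first 7-day set edgeR called 0 of 24, with 3 at an unadjusted p under 0.05, and the other tools 1 each. After aN1aN2aN3, where 9.19% of all genes rose and 10.4% fell, 3 of 20 rose, Itih3 (2.42), the metallothionein Mt1 (0.91) and the endotoxin carrier Lbp (0.86). Orm3 (-3.28, edgeR adjusted p = 0.00425), the neighbour of Orm1, and Fgb (-2.41) fell.

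Of 18 other neutrophil granule genes, 12 could be tested at 15 hours, and edgeR called 0 after either antibody, with 3 (aJ1aJ2) and 4 (aN1aN2) at an unadjusted p under 0.05. DESeq2 called 2 and 0 and limma with quality weights 0. At 5 days edgeR called 0 of 13, with 3 and 5 at an unadjusted p under 0.05, DESeq2 0 and limma with quality weights 2 and 1. Their median log2 fold change at 15 hours was -0.24 after aJ1aJ2 and 1.61 after aN1aN2. Of 21 neutrophil surface and chemotaxis genes, 12 were tested at 15 hours with 0 called by edgeR after either antibody, 6 in each at an unadjusted p under 0.05, 3 and 2 by DESeq2 and 1 and 0 by limma with quality weights. At 5 days edgeR called 0 of 10 (3 in each at an unadjusted p under 0.05), DESeq2 0 and 2 and limma with quality weights 2 in each. After aN1aN2aN3 1 of 11 granule genes and 3 of 9 surface and chemotaxis genes were called, beside 9.19% of all genes higher and 10.4% lower. The gelatinase Mmp9 (-2.25, edgeR adjusted p = 0.0152), the histone deiminase Padi4 (-1.93) and the cytokine Il1b (-1.81) fell and the decoy receptor Il1r2 (1.55) rose.

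Of 28 genes of the signals that induce the acute phase, 24 were tested at 15 hours, and edgeR called 0 after either antibody, with 2 and 4 at an unadjusted p under 0.05. DESeq2 and limma with quality weights each called 0 after aJ1aJ2 and 2 after aN1aN2. At 5 days edgeR called 0 of 25, again with 2 and 4 at an unadjusted p under 0.05, while DESeq2 called 1 in each and limma with quality weights 6 and 8. After aN1aN2aN3, 7 of 22 rose and 2 fell, beside 9.19% and 10.4% of all genes. Cebpd, a factor that binds C/EBP motifs, rose most (2.45, edgeR adjusted p = 0.00172), followed by the NF-kB inhibitor Nfkbia (1.17), the NF-kB subunit Rela (1.08) and the interleukin 17 receptor Il17ra (1.08). Il1b and the endotoxin receptor Tlr4 (-0.83) fell. Exons of Cebpd and Il1b overlap other genes on the opposite strand. Of 18 receptors and partners of the members, edgeR called 0 at 15 hours, with 2 and 1 at an unadjusted p under 0.05, DESeq2 1 and 0 and limma with quality weights 0. After aN1aN2aN3, with the same shares of all genes, 2 of 17 rose and 4 fell. Cd14 (1.38) and Scarb1 (0.98), which binds serum amyloid A, rose. Cd36 (-1.61), Ly96 (-1.25), Tfrc (-0.93) and Tlr4 fell.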

How the data were processed

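RNA of 50 thyroid samples was measured by single-end sequencing. The authors deposited raw read counts (whole numbers, not normalized) and, in another table, FPKM, which the authors scaled to transcript length and depth. GSNAP and limma are named in the submitters' processing notes, and for their roles, the annotation, the build and strandedness no source used here gives a statement. All columns matched a sample, so 0 were left over, and no pair of libraries of a group was alike (smallest chi-square per degree of freedom 17.1 over 100 pairs). Depth was 15271242 to 52835846 counts. Symbols were found for 52403 identifiers, and 233 had none.

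Counts were filtered (filterByExpr, minimum count 10, minimum total 15), scaled by TMM and tested with edgeR 4.0.16 (quasi-likelihood, robust) in R 4.3.3, each time point or set in 1 fit, with Benjamini-Hochberg adjustment over all genes tested. DESeq2 1.42.0 and limma 3.58.1 (quality weights, and trend on log2(FPKM + 0.1) or log2(FPKM + 1)) served as alternatives, beside RLE size factors, no filter, a replicate block, all 50 libraries in 1 fit and leaving out each library. Scripts were tested on simulated data, in which DESeq2 made false calls above its nominal rate in every fit and edgeR and limma stayed near theirs. The simulated counts had the same dispersion for all genes, no library set apart and no shift in tissue makeup. These rates therefore need not hold for the real libraries.

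The 7 genes and the gene lists were chosen with earlier results of these data known. All 7 are named in every comparison, and other list genes only where called, at most the 4 largest by fold in each direction per list, and the 5 closest by pattern. The neutrophil sum without Ltf was chosen after its values were seen. Replicate numbers were checked as pairs: deviations of 40 same-numbered pairs correlated at -0.56 to 0.69, 16 of them over 0.1, so the numbers were not taken to pair samples.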

Additional observations from a re-analysis of the deposited data

Results flagged for a closer look

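Of the 70 sets of 5 libraries (7 genes in 10 groups), 16 held a library set apart from the other 4. The limit was Dixon's 95% critical value of 0.71, and 14 stood apart at the top and 2 at the bottom. That value flags about 1 in 20 sets by chance only where values are independent and normally distributed. This was not shown for the CPM, and the same library could be flagged in several genes. The count of 16 is therefore a description and is not compared with 1 in 20. At 5 days, aJ1aJ2 replicate 3 was set apart in Saa3 (8.77 CPM), Lcn2 (105), S100a8 (248) and S100a9 (435). RW replicate 3 of the same time was set apart in Lcn2 (3.86), S100a8 (8.59), S100a9 (15.6) and, at the bottom, Cp (37.5 CPM). Both hold little Tg, and their neutrophil markers are given above. Skeletal muscle markers summed to 123440 unscaled CPM in RW replicate 3 and 89153 in aJ1aJ2 replicate 3. They summed to 1224 to 20035 in the other RW and aJ1aJ2 libraries of 5 days, and to 2893 to 82011 after aN1aN2. The part of muscle RNA in these values was not tested.

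At 15 hours, aN1aN2 replicate 2 stood above its group in S100a8 (30.7 CPM) and S100a9 (57.5), and RW replicate 2 in S100a8, at a low level (0.395). In the second 7-day set aJ1aJ2 replicate 5 stood above in Lcn2 (9.06) and S100a8 (7.31). Hp was set apart in aN1aN2 replicate 4 at 5 days (296 CPM) and in aJ1aJ2 replicate 2 of the first 7-day set (387). Lcn2 of aJ1aJ2 replicate 4 in that set lay below the other 4 (0.713).

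The effect of an antibody differed between times, by an edgeR interaction, for S100a9 after aN1aN2 (log2 -8.59 from 15 hours to 5 days, where the 15-hour groups lie in different processing blocks) and for Saa3 after aJ1aJ2 (log2 -7.26 from 15 hours to 7 days, whose RW groups are of different times). Both changes include 15-hour contrasts that served in choosing the genes, and Saa3 had too few counts to be tested in the first 7-day set alone. Nothing is read from these calls.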

How the results depend on the processing

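Signs were followed for 49 member values, which leave out the difference between the antibodies at 5 days and most changes of effect. Of 715 refits of these with 1 library left out, 697 kept their sign, 40 lost a call and 11 gained one. Of 436 under other alternatives, 427 kept it, 17 lost a call and 27 gained one. Outside the 49, signs turned in refits between the antibodies at 5 days for Saa3 (6 refits), Cp (4), Lcn2 (3) and Hp (1). For the change of the aJ1aJ2 effect to 5 days they turned for Saa3 (9) and for Lcn2, S100a8 and S100a9 (3 each). The cause of these changes was not tested. With 1 library left out, the number of the 7 genes called ran over 1 to 2 (aJ1aJ2 at 15 hours), 1 to 5 (aN1aN2 at 15 hours), 0 to 1 (aJ1aJ2 at 5 days), 1 to 2 (aN1aN2aN3) and 0 to 2 (change of the aN1aN2 effect to 5 days). It stayed at 0 between the antibodies at 15 hours and 5 days, for aN1aN2 at 5 days, aJ1aJ2 at 7 days and the change of the aJ1aJ2 effect to 5 days, and at 1 for its change to 7 days. At 15 hours after aJ1aJ2 it was 2 with RLE size factors, without a filter and with quality weights, 3 with DESeq2 and 0 with each of the 3 limma-trend fits on FPKM. The replicate block, whose numbers do not pair the samples, gave 1 gene for aN1aN2 at 15 hours in place of 4 and 0 in place of 1 for its change to 5 days, and altered no other such count by over 1.5 times. Quality weights gave 1 for aN1aN2 at 15 hours, and DESeq2 gave 1 between the antibodies. At 5 days, aJ1aJ2 had 2 by DESeq2, 1 with quality weights, 3 with all 50 libraries in 1 fit and 1 without both replicates 3 (chosen after seeing the data), aN1aN2 had 1, 2 and 1 in the first 3 of these, and the antibodies differed in 2 in the fit of 50. For aN1aN2aN3 it was 2 with DESeq2, the fit of 50 and both filtered FPKM fits, and 3 with quality weights. The changes to 5 days had 3 (aJ1aJ2) and 4 (aN1aN2) with quality weights, and the second had 0 without a filter and 3 without the 3 libraries that stand apart (chosen after seeing the data). Signs turned with quality weights for Cp (-0.00312) and Hp (-0.32) after aN1aN2 at 5 days, Hp (-0.23) and Lcn2 (-0.23) after aJ1aJ2 at 5 days, and S100a8 (0.14) and Saa3 (0.16) after aN1aN2aN3. Without both replicates 3 at 5 days they turned for Cp (-0.038) and Hp (-0.059) after aN1aN2 and Lcn2 (-0.037) after aJ1aJ2. With 1 library left out they turned at 5 days for Cp (-0.11 after aJ1aJ2, -0.040 after aN1aN2), Hp (-0.06 and -0.079 after aN1aN2), Lcn2 (-0.56 after aJ1aJ2, -0.07 and -0.19 after aN1aN2), S100a8 (-1.12) and S100a9 (-1.23). Between the antibodies at 15 hours they turned for Lcn2 (-0.04, -0.04, -0.05 and -0.26), S100a8 (-0.10) and S100a9 (-0.12), and at 7 days for Orm1 (0.20 and 0.04 after aJ1aJ2) and S100a8 (0.16 after aN1aN2aN3). Ranges with 1 library left out were -0.11 to 0.24 (Cp) and -0.56 to 4.15 (Lcn2), -1.12 to 6.51 (S100a8) and -1.23 to 6.51 (S100a9) after aJ1aJ2 at 5 days, and -0.04 to 0.30 (Cp), -0.08 to 0.42 (Hp) and -0.19 to 0.65 (Lcn2) after aN1aN2. They were -0.26 to 0.56 (Lcn2), -0.10 to 3.20 (S100a8) and -0.12 to 3.09 (S100a9) between the antibodies at 15 hours, -0.29 to 0.20 (Orm1) after aJ1aJ2 at 7 days and -0.81 to 0.16 (S100a8) after aN1aN2aN3. Without TMM scaling 65 of 70 group means moved by less than 1 SD, and the others were Orm1 (22.7), Hp (328) and Cp (182 CPM) after aJ1aJ2 and Lcn2 (9.58) and Cp (165 CPM) after aN1aN2aN3, all in the second 7-day set. Depth limits Saa3, S100a8 and S100a9, which had few counts in the controls.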
